A study of Mus musculus with 2 samples.

Results

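The oligodendrocyte lineage genes described here are 9 genes that were followed through the lineage cells of a hypothalamic single-cell data set: Olig1, Olig2, Pdgfra, Cspg4, Gpr17, Bmp4, Enpp6, Bcas1 and Fyn. They were chosen by name as genes known to mark the passage of precursors into myelinating cells, and all 9 were found among the 25618 genes listed for both libraries. The cells came from the hypothalamus, from its arcuate nucleus with the median eminence, of adult mice of the CD-1 strain, aged 7 to 8 weeks. One library held the pooled tissue of 6 Irx5-/- mice (Irx5KO) and the other that of 7 wildtype mice (WT). Live cells were sorted and run through Drop-seq, a droplet method that reads the 3′ ends of transcripts and counts molecules by unique molecular identifiers (UMIs). The genotype label names both alleles of Irx5, the transcription factor gene Iroquois homeobox 5, with no promoter or cell type that would limit the loss, and does not say which part of the gene was deleted. With 1 library per genotype made from pooled mice, no difference between genotypes has a replicate check, no test was run, and all intervals given here are exact 95% intervals that cover counting error only.

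Oligodendrocyte precursor cells (OPCs) are the dividing reserve from which the myelinating oligodendrocytes of the adult brain are made. On leaving the cell cycle they pass through a short-lived stage, the committed or differentiation-committed precursor (COP), in which receptors for growth factors are switched off and a set of transient genes is switched on before myelin genes take over. The transcription factors Olig1 and Olig2 act through the whole course, Pdgfra and Cspg4 mark the precursor, Gpr17, Bmp4, Enpp6, Bcas1 and Fyn are known from the stage of commitment and early myelination, and in the median eminence this course is known to continue in the adult.

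Filtering left 1949 cells with 4915775 UMIs in all in the Irx5KO library and 1841 cells with 3960089 UMIs in the WT library, and the median cell had 1692 UMIs in Irx5KO and 1621 in WT. The libraries shared 1 cell barcode sequence. Irx5 had 0 UMIs in Irx5KO cells and 13 UMIs in WT cells. Cells were clustered without the 9 genes, and classes were named from markers that included none of them. The 9 genes thus did not directly define the classes in which they were measured. For Gpr17 this is less sure, because it overlaps Lims2, one of the COP markers, and some reads of one gene may have been counted for the other. The lineage came to 208 of the 1949 Irx5KO cells (10.7%) and 398 of the 1841 WT cells (21.6%). OPC-like cells numbered 76 in Irx5KO and 185 in WT, COP-like cells 15 in Irx5KO and 21 in WT, and oligodendrocyte-like cells 117 in Irx5KO and 192 in WT. Classes were named from the markers below, so their sums describe the classes and are no separate check of the names. The 9 OPC markers (C1ql1, Vcan and others) summed to 7994 CPM (UMIs per 1000000 UMIs of the class in its library) in Irx5KO OPC-like cells and 8012 CPM in WT ones, to 3463 CPM in Irx5KO and 4633 CPM in WT COP-like cells, and to 108 and 83.5 CPM in the oligodendrocyte-like cells of the Irx5KO and WT libraries. The 10 COP markers in the tables (Neu4, Lims2 and others) summed to 2892 CPM in Irx5KO and 2958 CPM in WT COP-like cells, to 1026 and 1378 CPM in OPC-like cells and to 157 and 140 CPM in oligodendrocyte-like cells. They were thus highest in the COP-like class but below its OPC markers, so that the name COP-like rests on this order among the 3 classes, and the first clustering, before lineage cells were clustered again, had named most of these cells OPC. The 14 oligodendrocyte markers (Mbp, Mag and others) summed to 141283 CPM in Irx5KO and 143070 CPM in WT oligodendrocyte-like cells, to 54955 CPM in Irx5KO and 24461 CPM in WT COP-like cells, and to 1701 CPM in Irx5KO and 1953 CPM in WT OPC-like cells. The COP-like class was shallow in Irx5KO, with a median of 1461 UMIs per cell against 3054 in WT, and its Irx5KO cells carried a larger share of oligodendrocyte marker UMIs than its WT cells. Of the 14 oligodendrocyte markers, 7 had 0 UMIs in Irx5KO and 1 in WT COP-like cells, so this share rests on part of the list.

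The lineage was split clearly by the 9 genes although none of them was used in forming the classes, with the limit given above for Gpr17. Between stages a gene counted as higher or lower only when the ratio was at least 2-fold in the same direction in both libraries, a gene at 0 UMIs in one class counting by its ratio. Of the 9 genes, 5 (Gpr17, Bmp4, Enpp6, Bcas1 and Fyn) were higher in COP-like than in OPC-like cells, against 4.07% of the 2188 genes measured in that comparison. Pdgfra and Cspg4 were lower in COP-like cells, against 11.7% of those genes. The same 5 genes that were higher in COP-like cells were lower again in oligodendrocyte-like cells, 5 of 7 measured against 9.58% of all genes measured, and 0 of the 7 were higher there, against 15.6%. Set against OPC-like cells, oligodendrocyte-like cells had lower Olig1, Olig2, Pdgfra, Cspg4 and Gpr17, 5 of 8 genes measured against 16.2%, and higher Enpp6, 1 of 8 against 12.5%. The 3 comparisons share their cells pairwise and are not independent.

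**Figure D1:**
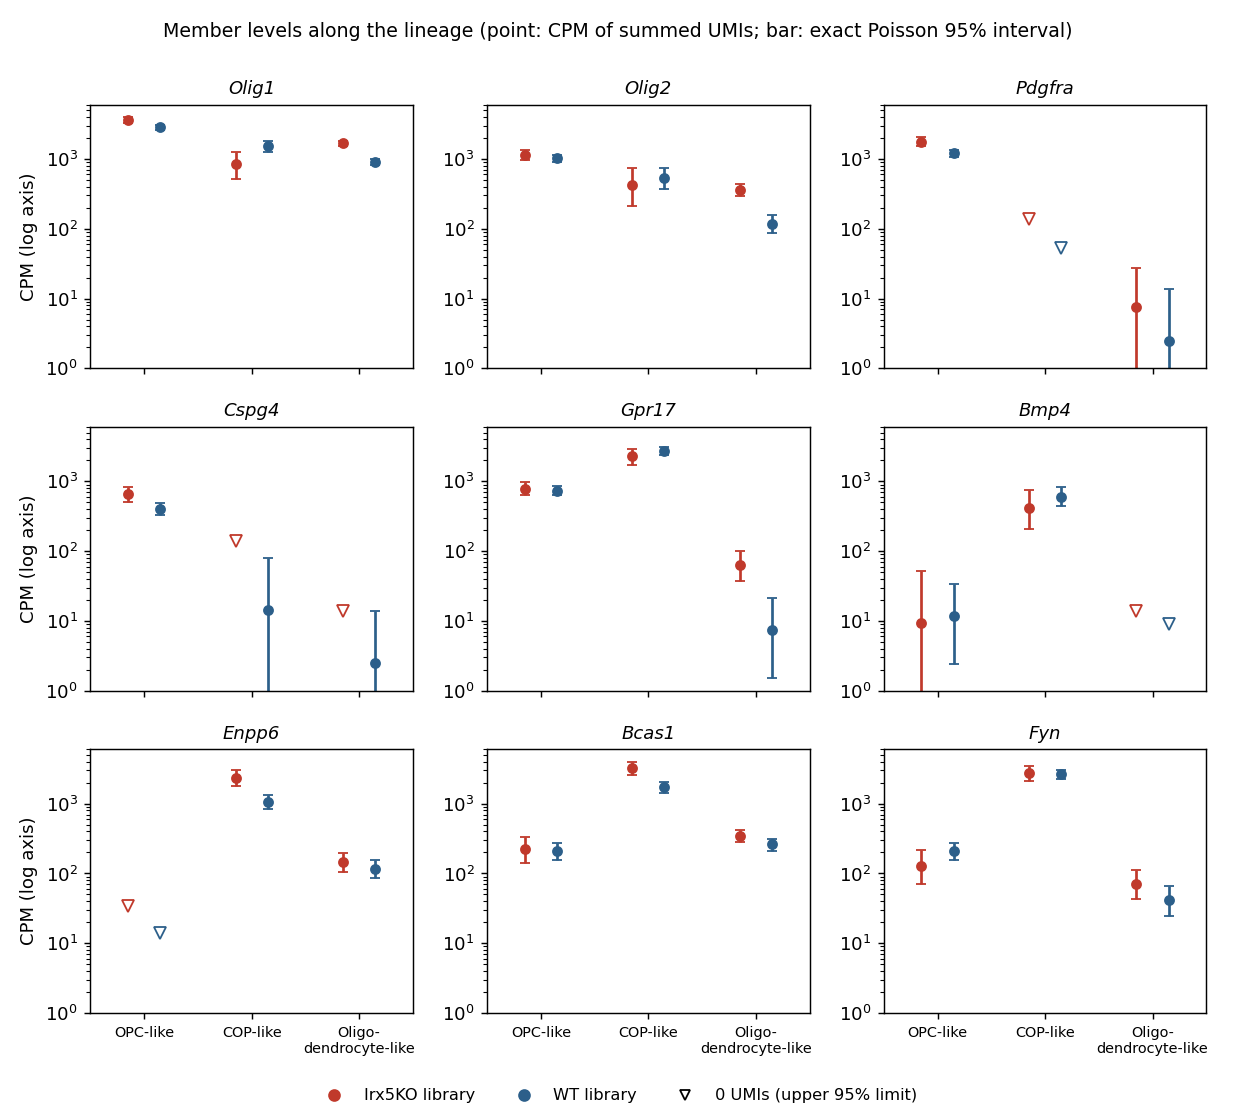
Level of each of the 9 genes (CPM, log axis) in OPC-like, COP-like and oligodendrocyte-like cells, with Irx5KO points left of WT points, exact 95% Poisson intervals as bars and open triangles at the upper 95% limit where no UMI was counted. Pdgfra and Cspg4 are near or at 0 after the OPC-like stage, and Gpr17, Bmp4, Enpp6, Bcas1 and Fyn peak in COP-like cells of both libraries.

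The precursor surface genes Pdgfra and Cspg4 were high in OPC-like cells and nearly or fully absent after them. Pdgfra (chromosome 5, 75152292 to 75198215, plus strand, mm10) encodes the receptor through which platelet-derived growth factor keeps OPCs dividing. It had 192 UMIs in Irx5KO and 311 UMIs in WT OPC-like cells, levels of 1774 and 1200.3 CPM, and 0 UMIs in the COP-like cells of both libraries. Pdgfra in COP-like cells was therefore at least 15.5-fold lower in Irx5KO and at least 27.7-fold lower in WT, against a floor of 3 UMIs in the class of each library, the floor used for each fold against a class at 0 UMIs. The exact 95% intervals reached down to 12.5-fold and 22.4-fold. Cspg4 (chromosome 9, 56865033 to 56899870, plus strand) encodes NG2, the chondroitin sulphate proteoglycan of the OPC surface. Its level was 656 CPM in Irx5KO and 401 CPM in WT OPC-like cells, from 71 and 104 UMIs. In COP-like cells it had 0 UMIs in Irx5KO, at least 5.75-fold lower against that floor (exact 95% lower limit 4.55-fold), and 1 UMI in WT, 27.8-fold lower (4.88 to 1109). Both genes thus marked the OPC-like stage alone within the lineage, since oligodendrocyte-like cells held 2 and 1 UMIs of Pdgfra and 0 and 1 UMIs of Cspg4 in Irx5KO and WT.

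Enpp6 and Bmp4 were nearly or fully absent from OPC-like cells and high in COP-like cells. Enpp6 (chromosome 8, 46986887 to 47096762, plus strand) encodes a choline phosphodiesterase known as an early sign of an oligodendrocyte being formed. No UMI of it was counted in 76 Irx5KO and 185 WT OPC-like cells, where 95% upper limits were 34.1 and 14.2 CPM. COP-like cells had 62 UMIs in Irx5KO and 74 UMIs in WT, levels of 2360 and 1068 CPM, which were at least 85.1-fold and at least 92.2-fold above OPC-like cells against the 3-UMI floor, with exact 95% lower limits of 67.2-fold and 73.2-fold. Enpp6 was the only one of the 9 with a switch from no UMI in OPC-like cells to a level that stayed measurable in oligodendrocyte-like cells, at 146 CPM in Irx5KO and 115 CPM in WT. Bmp4 (chromosome 14, 46383520 to 46390669, minus strand), a secreted ligand of the bone morphogenetic protein family, was narrower still. It had 1 and 3 UMIs in OPC-like cells, 11 and 42 UMIs in COP-like cells and 0 UMIs in oligodendrocyte-like cells of Irx5KO and WT. The COP-like level, 419 CPM in Irx5KO and 606 CPM in WT, was 45.3-fold (6.58 to 1949.7) and 52.3-fold (16.7 to 264) above OPC-like cells. Against the 3-UMI floor it was at least 37.3-fold and at least 82.3-fold above oligodendrocyte-like cells, with exact 95% lower limits of 25.5-fold and 64.0-fold.

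The 250 bases before the RefSeq start of Pdgfra, Enpp6 and Bmp4 are shown because these genes had 0 or a few UMIs at one stage and many at the next. Bases are from RefSeq on GRCm38.p6, written 5′ to 3′ on the strand of the gene, for Pdgfra at chr5:75152001-75152250 (plus), Enpp6 at chr8:46986637-46986886 (plus) and Bmp4 at chr14:46390670-46390919 (minus). Capitals mark matches on either strand to CAGCTG or CAGATG, forms of the E-box read by basic helix-loop-helix factors such as the OLIG proteins, and to ACAAAG or ACAATG, forms of the motif of SOX factors.
Pdgfra promoter: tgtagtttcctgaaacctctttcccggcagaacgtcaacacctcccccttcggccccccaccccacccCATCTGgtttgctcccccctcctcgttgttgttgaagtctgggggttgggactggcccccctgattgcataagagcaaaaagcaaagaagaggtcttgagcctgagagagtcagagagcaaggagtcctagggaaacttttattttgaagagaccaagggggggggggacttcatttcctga
Enpp6 promoter: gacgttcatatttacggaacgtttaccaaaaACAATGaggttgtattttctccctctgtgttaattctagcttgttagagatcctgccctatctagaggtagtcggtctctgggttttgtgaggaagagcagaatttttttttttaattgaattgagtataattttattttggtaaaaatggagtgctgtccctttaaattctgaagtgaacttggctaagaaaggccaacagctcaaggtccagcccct
Bmp4 promoter: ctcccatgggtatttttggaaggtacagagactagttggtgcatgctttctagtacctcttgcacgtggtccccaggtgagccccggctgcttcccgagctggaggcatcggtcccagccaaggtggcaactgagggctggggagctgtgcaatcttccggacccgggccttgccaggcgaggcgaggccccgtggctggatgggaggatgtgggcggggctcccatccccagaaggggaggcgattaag
Pdgfra held 1 match to CAGATG, read on the other strand, a motif found in 14.4% of the 32851 promoter windows in the RefSeq table. Enpp6 held 1 match to ACAATG, found in 10.7% of windows. Bmp4 held none of the 4 motifs in these letters, and the match of a motif is a description of the sequence alone.

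Bcas1 and Fyn were present at low levels in OPC-like cells and were highest in COP-like cells. Bcas1 (chromosome 2, 170346991 to 170427845, minus strand) encodes a protein known from newly forming myelinating cells. It measured 222 CPM (24 UMIs) in Irx5KO and 208 CPM (54 UMIs) in WT OPC-like cells, and 3235 CPM (85 UMIs) and 1717 CPM (119 UMIs) in COP-like cells, ratios of 14.6-fold (9.18 to 24.0) and 8.24-fold (5.93 to 11.6). Oligodendrocyte-like cells were 9.30-fold lower again in Irx5KO and 6.596-fold lower in WT, yet kept 348 and 260.4 CPM. Fyn (chromosome 10, 39368855 to 39565381, plus strand) encodes a Src family kinase that acts early in myelination. Its level in COP-like cells was 2740.1 CPM in Irx5KO and 2655 CPM in WT, 21.2-fold (11.8 to 40.7) and 12.7-fold (9.36 to 17.6) above OPC-like cells. In oligodendrocyte-like cells it measured 71.0 CPM in Irx5KO and 41.8 CPM in WT, 38.6-fold and 63.6-fold below COP-like cells. Bcas1 thus outlasted commitment at a level near that of precursors, 1.57-fold (0.992 to 2.57) and 1.25-fold (0.892 to 1.77) above it, whereas Fyn ended below its precursor level in WT, by 4.99-fold (2.85 to 9.18), with an interval that included no difference in Irx5KO, 1.82-fold lower (0.845 to 3.83).

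Gpr17, an orphan G protein-coupled receptor that marks the passage to commitment, was the only COP-high gene of the 9 with a high level in OPC-like cells too. It lies on chromosome 18, on the minus strand, wholly within Lims2 on the other strand. The OPC-like level was 786 CPM (85 UMIs) in Irx5KO and 733 CPM (190 UMIs) in WT, and the COP-like level 2283 CPM (60 UMIs) in Irx5KO and 2728 CPM (189 UMIs) in WT. The step was 2.91-fold (2.05 to 4.09) in Irx5KO and 3.72-fold (3.02 to 4.57) in WT, the smallest of the 5 genes in both libraries. In oligodendrocyte-like cells its level was 63.6 CPM in Irx5KO, 35.9-fold lower, and 7.37 CPM in WT, 370.2-fold lower (125 to 1811) and resting on 3 UMIs. The sources used here do not give whether the authors' counting used strand, so some reads of Gpr17 may have been counted for Lims2 or the reverse. Antisense or opposite-strand genes, taken over their whole span with introns, also overlap exons of Olig1, Pdgfra, Bmp4, Enpp6, Bcas1 and Fyn, and the same limit holds for them. The last 500 bases of the longest Bmp4 transcript also held stretches of at least 60 bases that were at least 90% identical to other transcripts, such as Tmem220. Those of Olig1 held a stretch of 157 bases that was 100% identical to Gm15966, the opposite-strand gene that overlaps it. The part of such stretches in the Bmp4 and Olig1 counts was not tested.

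Olig1 and Olig2, the basic helix-loop-helix factors that define the lineage, lie on the plus strand of chromosome 16 (91269772 to 91271933 and 91225457 to 91228677), 41094 bases apart. Both were present at every stage and highest in OPC-like cells. Olig1 measured 3641 CPM (394 UMIs) in Irx5KO and 2844 CPM (737 UMIs) in WT OPC-like cells, and Olig2 1146 CPM (124 UMIs) and 1027 CPM (266 UMIs). In COP-like cells Olig1 was 4.35-fold lower (2.83 to 7.02) in Irx5KO and 1.88-fold lower (1.53 to 2.33) in WT, and Olig2 was 2.74-fold lower (1.48 to 5.63) and 1.92-fold lower (1.36 to 2.79). The WT steps were just short of 2-fold, so neither gene was counted as lower there. From COP-like to oligodendrocyte-like cells the libraries parted. Olig1 was 1.99-fold higher (1.30 to 3.21) at the later stage in Irx5KO and 1.65-fold lower (1.32 to 2.05) in WT, and Olig2 was 1.15-fold lower (0.558 to 2.16) in Irx5KO and 4.53-fold lower (2.87 to 7.10) in WT.

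For Pdgfra, Gpr17 and Enpp6 the share of cells with at least 1 UMI was highest at the same stage as the level. After each cell was thinned to 1000 UMIs, which left 57 Irx5KO and 131 WT OPC-like cells, 12 and 19 COP-like cells and 100 and 162 oligodendrocyte-like cells, Pdgfra was detected in 75.4% of Irx5KO and 61.8% of WT OPC-like cells (81.6% and 70.8% unthinned). In COP-like cells Pdgfra was detected in 0 of 15 Irx5KO cells, which allows a share of cells with a UMI of up to 20% at 3 counts (exact 95% upper limit 21.8%), and in 0 of 21 WT cells, which allows up to 14.3% (exact 95% upper limit 16.1%). Neuron-like cells, which are not known to make Pdgfra, Gpr17 or Enpp6, had a median of 2418.5 UMIs in Irx5KO and 2127.5 UMIs in WT and gave Pdgfra in 0% of 766 Irx5KO and 0% of 514 WT thinned cells (0.335% and 0.318% unthinned). Gpr17 was found in 91.7% of Irx5KO and 94.7% of WT thinned COP-like cells (93.3% and 100% unthinned), and in 0% and 0.389% of thinned neuron-like cells (0.112% and 0.796% unthinned). Enpp6 was found in 66.7% of Irx5KO and 68.4% of WT thinned COP-like cells (86.7% and 76.2% unthinned), and in 0% of thinned neuron-like cells of both libraries. The detection of the stage genes thus stood far above that in neuron-like cells. For Olig2 the share of cells did not always follow the order of its levels. Unthinned, it was 85.7% of WT COP-like and 70.3% of WT OPC-like cells, against 42.1% and 58.8% after thinning. In thinned Irx5KO cells it was 25% of COP-like and 31% of oligodendrocyte-like cells, with levels of 419 and 363 CPM.

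COP-like cells held UMIs of several of these genes in the same cell. Each of the 15 Irx5KO and 21 WT COP-like cells held UMIs of at least 3 of the 5 genes that peaked in that class, against 3.95% of Irx5KO and 3.24% of WT OPC-like cells and 2.56% and 1.04% of oligodendrocyte-like cells. All 5 were found at once in 4 Irx5KO and 10 WT COP-like cells, the WT cells being deeper, and in no OPC-like or oligodendrocyte-like cell. The 5 genes were grouped by their peak in this class, which favours high joint counts there. The counts were not thinned, and median depth also differed between classes. It was 1461 and 3054 UMIs in Irx5KO and WT COP-like cells, 1337.5 and 1239 in OPC-like cells, and 1728 and 1850.5 in oligodendrocyte-like cells. Within the OPC-like class Gpr17 was found in 41 of 76 Irx5KO cells and 94 of 185 WT cells, of which 37 and 69 also had a Pdgfra UMI. In the OPC-like cells with Gpr17 the level of Pdgfra was 1.35-fold (0.992 to 1.84) that of cells without in Irx5KO and 1.03-fold (0.822 to 1.30) in WT, both intervals including 1. Gpr17 and Pdgfra therefore overlapped in OPC-like cells and parted only at the COP-like stage, where Pdgfra had no UMI.

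Outside the lineage the 9 genes fell into 2 kinds. Olig1, Olig2, Gpr17, Enpp6 and Bcas1 had between 91.4% and 97.4% of all their UMIs in lineage cells in both libraries. Cspg4 had 81.6% of its UMIs there in Irx5KO and 86.9% in WT, and in mural-like cells (pericytes and smooth muscle, which are known to carry NG2) it measured 167 CPM in Irx5KO and 161 CPM in WT. Pdgfra had 60.6% and 73.8%, with 648 and 628 CPM in the leptomeningeal fibroblast-like cells of Irx5KO and WT, where it was found in 48.8% and 41.4% of thinned cells. Bmp4 was also read in those fibroblast-like cells, at 113 CPM in Irx5KO and 93.9 CPM in WT, and Fyn in neuron-like cells, at 47.0 and 37.0 CPM. For Bmp4 and Fyn the lineage held 30% and 36.0% of UMIs in the Irx5KO library and 66.2% and 69.7% in the WT library, so that in Irx5KO most UMIs of both genes came from other cells.

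**Figure D2:**
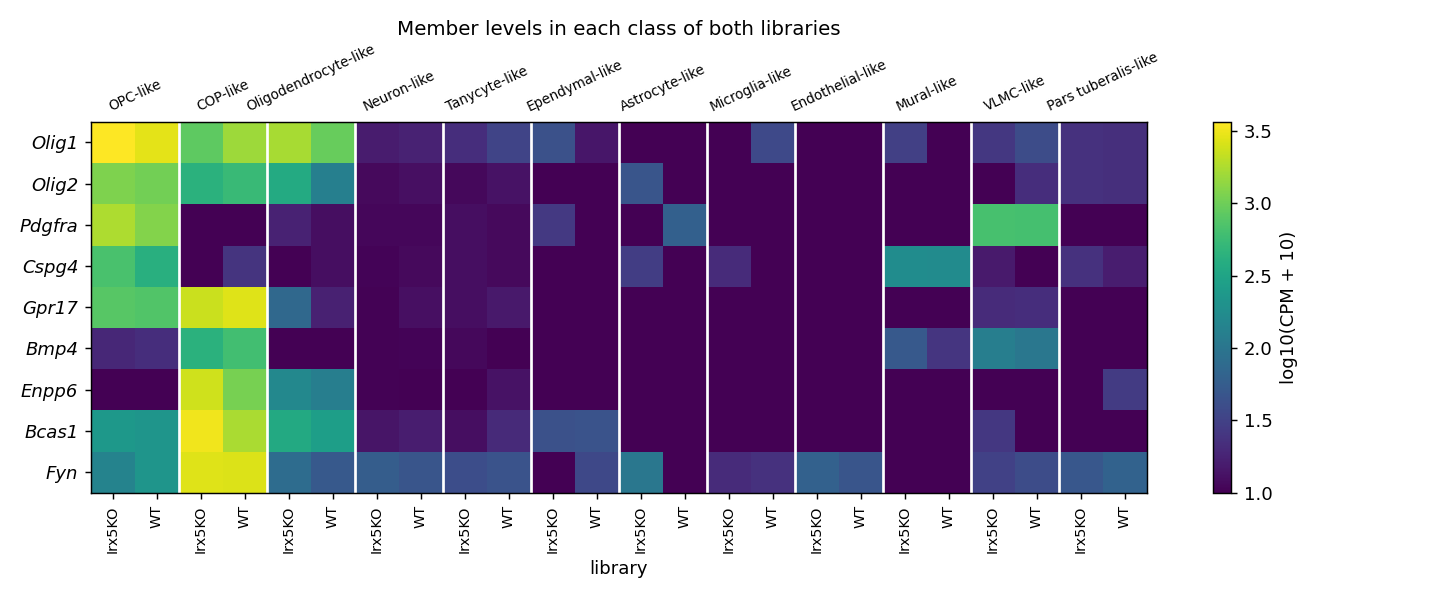
Level of the 9 genes (colour, log10 of CPM + 10) in each named class of the Irx5KO and WT libraries. Outside the lineage the brightest tiles in both libraries are Pdgfra and Bmp4 in fibroblast-like cells (vascular and leptomeningeal, VLMC-like, 648 and 628 CPM of Pdgfra in Irx5KO and WT) and Cspg4 in mural-like cells (167 and 161 CPM).

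The comparison of genotypes asked whether lineage cells were as frequent, and these genes as high within a stage, in Irx5KO as in WT. OPC-like cells made up 3.90% of Irx5KO and 10.05% of WT cells, a share 2.58-fold lower (1.96 to 3.41), and oligodendrocyte-like cells 6.00% and 10.4%, 1.74-fold lower (1.37 to 2.21). COP-like cells made up 0.770% and 1.14%, a ratio of 0.675 (0.324 to 1.37) that could not be told from 1 at this number of cells. The shares rest on dissection, dissociation and sorting of 1 pool per genotype, and neuron-like cells were a larger share of the Irx5KO library (46.0% against 34.1% in WT), whose part in the lower share of lineage cells was not tested. Among lineage cells alone, OPC-like, COP-like and oligodendrocyte-like cells were 36.5%, 7.21% and 56.3% in Irx5KO and 46.5%, 5.28% and 48.2% in WT, and the interval of each ratio included 1. Over all kept cells Gpr17, for example, had 34.2 CPM in Irx5KO and 99.0 CPM in WT. Such a CPM mixes the level within a stage with the share of lineage cells. The share of all genes that were lower in Irx5KO over all kept cells was not computed, so the 9 genes were not counted there. The levels per stage took their own course.

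**Figure D3:**
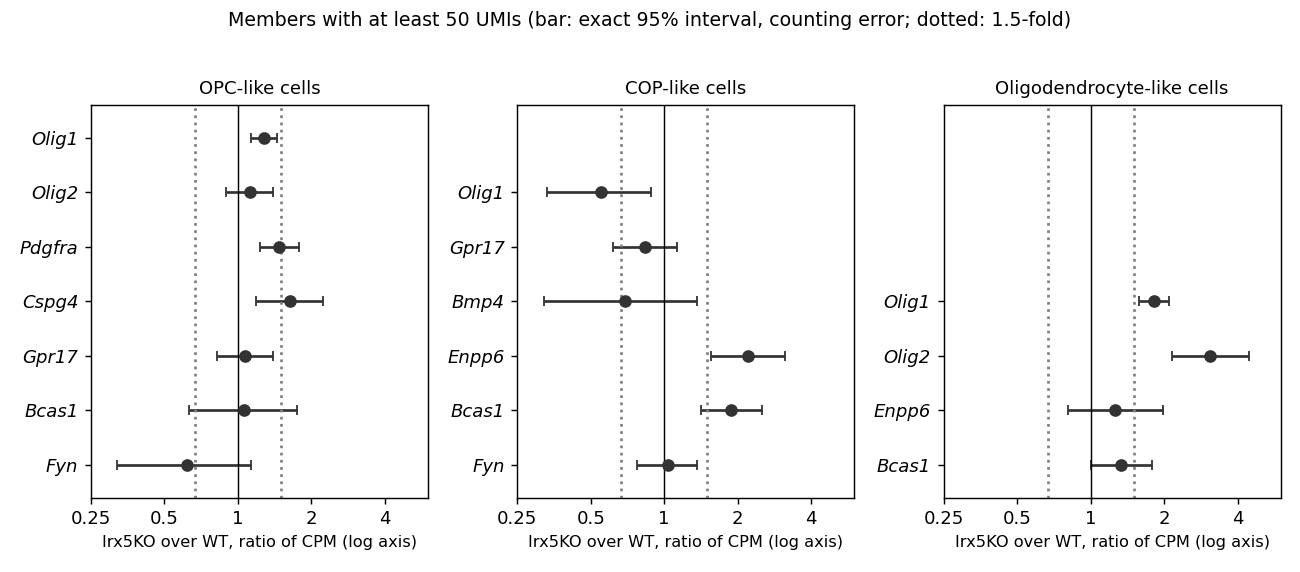
Irx5KO over WT ratio of CPM (log axis) for those of the 9 genes with at least 50 UMIs in OPC-like, COP-like and oligodendrocyte-like cells, with exact 95% intervals and lines at 1 and at 1.5-fold either way. Olig2 and Olig1 in oligodendrocyte-like cells stand clear of the upper line at 3.08 and 1.82.

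In oligodendrocyte-like cells both Olig genes were higher in Irx5KO. At least 50 UMIs over both libraries were counted there for 4 of the 9 genes, and 2 of them were at least 1.5-fold higher in Irx5KO, against 9.26% of the 2408 genes measured, while 0 were lower, against 10.8%. Olig2 measured 363 CPM (294 to 442) in Irx5KO and 118 CPM (86.9 to 156) in WT, from 97 and 48 UMIs, a ratio of 3.08 (2.16 to 4.44). Olig1 measured 1668 CPM (1516 to 1830) in Irx5KO and 919 CPM (828 to 1017) in WT, from 446 and 374 UMIs, a ratio of 1.82 (1.58 to 2.09). For neither gene did the interval of its level in Irx5KO overlap that in WT. The interval of the ratio was clear of 1 for these 2 genes on the higher side, against 9.3% of all genes measured, and for 0 on the lower side, against 10.9%. The other measured genes differed less: Bcas1 had a ratio of 1.34 (0.99998 to 1.78) and Enpp6 of 1.26 (0.805 to 1.97).

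The higher Olig levels were spread over many cells. After thinning, Olig2 was detected in 31.0% of 100 Irx5KO and 6.79% of 162 WT oligodendrocyte-like cells (45.3% and 13.5% unthinned), against 0% of Irx5KO and 0.195% of WT thinned neuron-like cells (0.558% and 0.796% unthinned). Olig1 was detected in 73.0% and 52.5% of thinned cells (87.2% and 70.3% unthinned), against 0.522% and 0.778% of neuron-like cells (1.67% and 2.23% unthinned). Median depths were close, at 1728 UMIs in Irx5KO and 1850.5 UMIs in WT. By cell, 62 of 117 Irx5KO (53.0%) and 52 of 192 WT (27.1%) oligodendrocyte-like cells had at least 3 UMIs of Olig1, and 64 Irx5KO (54.7%) and 166 WT (86.5%) cells had no UMI of Olig2. Both genes were found in the same cell in 48 Irx5KO (41.0%) and 17 WT (8.85%) cells.

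**Figure D4:**
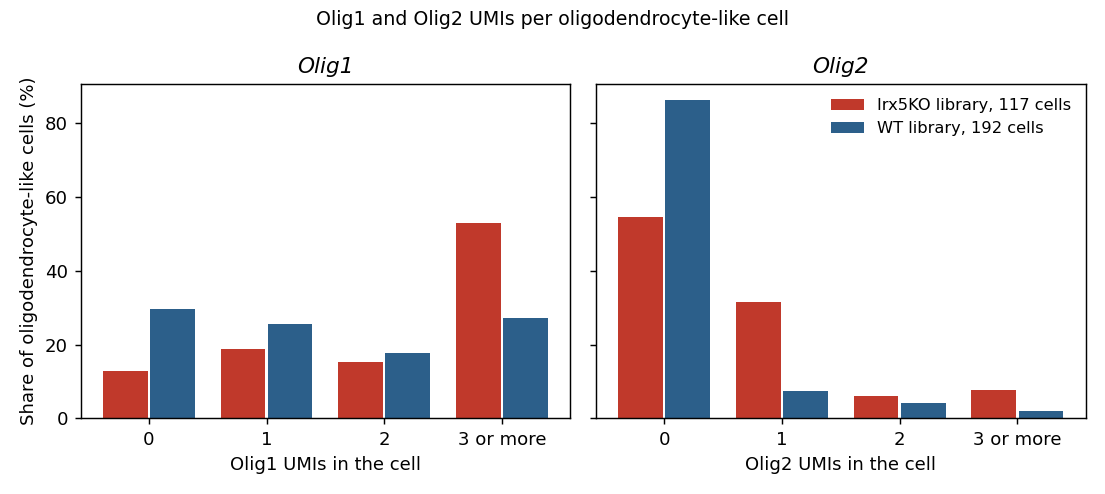
Share of oligodendrocyte-like cells (percent) by the number of Olig1 and of Olig2 UMIs counted in the cell, Irx5KO bars left of WT bars. Cells with no Olig2 UMI make up 54.7% of Irx5KO and 86.5% of WT cells.

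The difference was present in both parts of the class. Of the 2 sub-clusters of oligodendrocyte-like cells, the first (37 Irx5KO and 73 WT cells) gave ratios of 2.01 (1.64 to 2.46) for Olig1 and 3.16 (1.84 to 5.55) for Olig2, and the second (80 and 119 cells) gave 1.64 (1.35 to 1.999) and 2.97 (1.83 to 4.93). One Irx5KO cell of 14342 UMIs held 52 UMIs of Olig1, 15 of Olig2, 6 of Gpr17 and 10 of Fyn. Without the 6 Irx5KO and 2 WT oligodendrocyte-like cells above 6000 UMIs, a limit chosen after seeing the data, the ratios were 1.85 for Olig1 and 3.43 (2.31 to 5.17) for Olig2. OPC markers in this class summed to 108 CPM in Irx5KO and 83.5 CPM in WT, with Pdgfra at 2 and 1 UMIs and Cspg4 at 0 and 1. Neuron markers summed to 729 CPM in Irx5KO and 508 CPM in WT, and their part in the Olig difference was not tested. Gpr17 and Fyn were below 50 UMIs in this class. Gpr17 had 17 UMIs in Irx5KO and 3 in WT, a ratio of 8.63 (2.495 to 45.9) that came to 4.27 (0.975 to 25.6) without the deepest cells, and Fyn had 19 and 17 UMIs, a ratio of 1.70 (0.837 to 3.48) that turned to 0.753 (0.264 to 1.91).

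Among OPC-like cells the precursor surface genes Cspg4 and Pdgfra had the highest ratios. Of the 9 genes, 7 were measured, of which 1 was at least 1.5-fold higher in Irx5KO, against 7.45% of the 1624 genes measured, and 1 was lower, against 14.4%, counts that stand near the background. Cspg4 was the higher one, with a ratio of 1.63 (1.19 to 2.23), or 1.46 with scaling by trimmed mean of M values, whose limit is given below. Pdgfra came next with 1774 CPM (1532 to 2044) in Irx5KO and 1200.3 CPM (1071 to 1341) in WT, a ratio of 1.48 (1.23 to 1.78), and Olig1 followed with 1.28 (1.13 to 1.45). These 3 of 7 had intervals clear of 1 on the higher side, against 5.67% of all genes measured, and 0 had one on the lower side, against 9.61%. Fyn was lower, with 14 UMIs in Irx5KO and 54 in WT, 1.61-fold lower with an interval (0.882 to 3.14) that included no difference, and its ratio turned to 1.21 when classes were taken from a marker score per cell. For Olig2 the ratio was 1.12 (0.895 to 1.39), for Gpr17 1.07 (0.820 to 1.39) and for Bcas1 1.06 (0.629 to 1.75), all with intervals that included 1. Neuron markers summed to 1728 CPM in Irx5KO and 1023 CPM in WT OPC-like cells, and astrocyte markers, some of which OPCs carry, to 1294 and 1115 CPM. Their part in these ratios was not tested.

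In COP-like cells, with 15 Irx5KO and 21 WT cells, Enpp6 and Bcas1 had ratios above 1.5 and Olig1 was lower, while Fyn, Bmp4 and Gpr17 passed 1.5-fold in neither direction. Of the 9 genes, 6 were measured, 2 of them at least 1.5-fold higher in Irx5KO against 13.9% of only 231 genes measured, and 1 lower against 33.8%, a share below the background. Enpp6 had a ratio of 2.21 (1.55 to 3.14) and Bcas1 of 1.88 (1.41 to 2.51). Olig1 measured 837 CPM (22 UMIs) in Irx5KO and 1515 CPM (105 UMIs) in WT, 1.81-fold lower (1.13 to 3.01). The same 3 genes had intervals clear of 1, 2 of 6 higher against 13.4% of genes measured and 1 of 6 lower against 22.9%. Gpr17 had a ratio of 0.837 (0.615 to 1.12), Bmp4 of 0.691 (0.321 to 1.37) and Fyn of 1.03 (0.775 to 1.36), all with intervals that included 1. The summed oligodendrocyte markers moved with Enpp6 and Bcas1, at 54955 CPM in Irx5KO and 24461 CPM in WT, and the summed OPC markers with Olig1, at 3463 and 4633 CPM. The oligodendrocyte sum rests on part of the list, 7 of the 14 markers having 0 UMIs in Irx5KO and 1 in WT. Single OPC genes did not all follow the OPC sum. Of 4 measured OPC surface and matrix genes, 1 was at least 1.5-fold higher in Irx5KO (Bcan, 2.21, 1.47 to 3.32), against 13.9% of genes measured. In the other direction 0 were at least 1.5-fold lower, against 33.8%. A different mean position along the lineage and a different level at one position cannot be told apart in these few cells. With classes from a marker score per cell, which put 45 Irx5KO and 81 WT cells in the class, the ratios were 1.41 for Enpp6, 1.16 for Bcas1 and 0.987 for Olig1, and none of these 3 passed 1.5-fold. Scaling by trimmed mean of M values, over genes with UMIs in both libraries, divided all ratios by 1.12 in OPC-like, 1.30 in COP-like and 1.08 in oligodendrocyte-like cells. This left 1.46 for Cspg4 in OPC-like cells, and 2.85 for Olig2 and 1.68 for Olig1 in oligodendrocyte-like cells. In COP-like cells it left 1.71 for Enpp6, 1.45 for Bcas1, 0.646 for Gpr17, 0.533 for Bmp4 and 0.427 for Olig1. With that scaling Gpr17 and Bmp4 in COP-like cells passed 1.5-fold lower. However, the median log2 ratio of genes with at least 50 UMIs was -0.07 in OPC-like, -0.29 in COP-like and -0.016 in oligodendrocyte-like cells. Dividing by factors above 1 moved ratios away from a common scale for those genes, so the scaled values are an alternative only.

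Other genes of the same pathways gave the setting. Of 12 measured lineage transcription factors, 2 were higher (Nkx2-2 and Zeb2) in COP-like than in OPC-like cells of both libraries, against 4.07% of all genes measured. In Irx5KO the ratio of Zeb2, 2.15 (0.974 to 4.50) from 12 and 23 UMIs, had an interval that included no difference. By the ratio alone 4 of the 12 were lower, against 11.7%. Of these, Hes5 and Sox11 had 0 UMIs and Hes1 had 1 UMI in Irx5KO COP-like cells, each with an interval there that included no difference. Nkx2-2, a homeodomain factor of early differentiation, was 3.66-fold and 3.04-fold higher in Irx5KO and WT. Id2, a target of BMP signalling, was the only measured gene of that list and was 4.86-fold lower (1.26 to 41.5) and 10.03-fold lower (2.68 to 84.3) in COP-like cells, the class in which the ligand gene Bmp4 was highest. Sirt2 and Nfasc, the early myelinating genes measured, were also highest in COP-like cells, being 15.4-fold and 8.51-fold higher (Sirt2) and 30-fold and 12.9-fold higher (Nfasc) in COP-like than in OPC-like cells, and lower again in oligodendrocyte-like cells by 5.41-fold and 4.99-fold (Sirt2) and 2.95-fold and 3.38-fold (Nfasc). In oligodendrocyte-like cells they stayed above OPC-like cells, by 2.84-fold in Irx5KO and 1.70-fold in WT for Sirt2 and by 10.2-fold and 3.82-fold for Nfasc. Among the partners of Fyn, Cntn1, which encodes a contactin known to act with Fyn in oligodendrocytes, was 13.5-fold lower (3.64 to 113) and 12.5-fold lower (5.68 to 34.4) in COP-like than in OPC-like cells, and Mapt, which encodes tau, was 4.83-fold and 2.61-fold higher. Pdgfa, the ligand of the receptor that Pdgfra encodes, was 3.16-fold (1.24 to 10.3) and 4.88-fold (2.43 to 11.1) higher in oligodendrocyte-like than in OPC-like cells of Irx5KO and WT.

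Between genotypes the Hes genes were among the listed genes that differed in OPC-like cells. Of 12 transcription factors measured there, 0 were at least 1.5-fold higher and 4 were lower in Irx5KO, with a median log2 ratio of -0.13 against -0.07 over all genes measured, of which 7.45% were higher and 14.4% lower. Of these 4, Nkx2-2 (0.959 to 4.66) and Sox11 (0.912 to 3.82) had intervals of the fold lower that included 1. Hes1 was 3.62-fold lower (1.81 to 8.21), at 83.2 CPM (9 UMIs) in Irx5KO and 301 CPM (78 UMIs) in WT, and Hes5 1.85-fold lower (1.02 to 3.58), at 129 CPM (14 UMIs) and 239 CPM (62 UMIs). Both encode repressors that are targets of Notch. Lims2, whose reads may mix with those of Gpr17, was 1.71-fold lower (1.20 to 2.498) in Irx5KO OPC-like cells, and 0 of 4 OPC surface and matrix genes and 0 of 5 Src family and Fyn partner genes passed 1.5-fold in either direction. In oligodendrocyte-like cells 1 of 8 transcription factors was higher, against 9.26% of all genes measured, and 0 were lower, against 10.8%, counts near the background. The higher one was Tcf4, with 538 CPM in Irx5KO and 329 CPM in WT, a ratio of 1.64 (1.28 to 2.09). Nfasc (2.23, 1.76 to 2.84), Sirt2 (1.55, 1.33 to 1.80) and Cntn1 (2.64, 1.46 to 4.92) were also higher in Irx5KO oligodendrocyte-like cells. Olig2 thus had the highest ratio among the members and listed genes measured in that class, with intervals that overlap those of Nfasc and Cntn1.

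Across classes, each gene was set beside up to 3 genes with the most similar pattern, by Pearson correlation of log2(CPM + 10) over 12 points, the 6 named classes with at least 50 cells in each of the 2 libraries, among 4574 genes. COP-like cells were too few to enter, and points of 1 library share its depth and background, so these values describe the class pattern only. Olig1 was closest to Sox10 (0.984), Olig2 (0.978) and Pllp (0.976), and Olig2 to Scrg1 (0.981), Olig1 (0.978) and Rbpjl (0.978). Cspg4 was close to Neu4 (0.9904) and A930009A15Rik (0.988), and Pdgfra, which is shared with fibroblast-like cells, to Tril (0.961), Tmem100 (0.939) and Etv4 (0.932). Gpr17 was closest to Sema3d (0.981), Scrg1 (0.959) and Cav1 (0.957). Enpp6 had Nipal4 (0.996), Galnt6 (0.995) and C030029H02Rik (0.994) as nearest genes, and Bcas1 had Pllp (0.985), Gal3st1 (0.982) and Sox10 (0.981). Fyn stood nearest to Chadl (0.956), Luzp2 (0.943) and Nlgn3 (0.941), and Bmp4 had the loosest neighbours of the 9, Clk1 (0.934), Cp (0.907) and Hsp90b1 (0.899).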

How the data were processed

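UMI counts per gene and cell were taken from the deposited tables. Per the submitters' processing notes, which give no order of use, bcl2fastq, Picard, STAR 2.6.0b, Seurat 3 and the mm10 build were used. The WT table holds whole counts, as deposited by the authors. The Irx5KO and merged tables hold natural log values, which the authors made as ln(1 + 10000 × count / total), as the values themselves show, and 100% of Irx5KO values returned to whole counts. The merged table and the tables of each library differed in 0 UMIs over the cells they share.

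The filter kept barcodes with 500 or more genes whose mitochondrial share did not pass 20%. A doublet caller removed 23 Irx5KO and 10 WT cells. Cells were clustered (scanpy 1.11.5, 2000 variable genes, 30 principal components, 15 neighbours, Leiden resolution 1) without the 9 genes, and lineage cells were clustered again. Clusters were named from marker lists, with a scoring rule set after the clusters were seen. The 9 genes, the lists and the measures were chosen with earlier results of these data known.

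CPM have exact Poisson intervals, ratios exact conditional binomial intervals, and shares Clopper-Pearson intervals (scipy 1.17.1). Genes were measured from 50 UMIs over the compared groups. No fit across genes was made. The interval scripts were checked on simulated counts drawn with counting error alone. That check covers the arithmetic of the intervals and not variation between cells or mice. Besides the 9 genes, up to 4 genes per list with the interval bound farthest from no difference, and 3 like genes per member, could be named; a result that this rule gives but that is withheld is not reported here. Positions are from GENCODE vM21, and promoters from RefSeq (6 of 9 genes matched; sequence of Gpr17 is not shown). Other filters, clusterings, thinning, scalings and, added after seeing the data, leaving out deep or cycling cells were tried.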

Additional observations from a re-analysis of the deposited data

Results flagged for a closer look

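Olig1 went in opposite directions between genotypes at 2 neighbouring stages. Its Irx5KO over WT ratio was 1.82 in oligodendrocyte-like cells (446 UMIs in Irx5KO and 374 in WT) and 0.553 in COP-like cells (22 UMIs in Irx5KO and 105 in WT). Each interval was clear of 1, the difference between the 2 ratios was not tested, and the COP-like value rests on 15 Irx5KO and 21 WT cells whose median depth was 1461 and 3054 UMIs. With classes from a marker score per cell the COP-like ratio was 0.987, and 33.8% of the genes measured in COP-like cells were at least 1.5-fold lower in Irx5KO. With 1 library per genotype, no sample could be set against others of its group.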

How the results depend on the processing

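No paired analysis was possible because each genotype had 1 library. All counts of members that differed between stages, all class share ratios and both counts in oligodendrocyte-like cells stayed within 1.5 times of the reported value under the alternatives that were run. Over these, the Irx5KO over WT ratio in oligodendrocyte-like cells ran from 1.67 to 1.86 for Olig1 and from 2.72 to 3.72 for Olig2. In OPC-like cells it ran from 1.43 to 1.82 for Cspg4 and from 1.30 to 1.60 for Pdgfra. The small genotype counts in the other classes moved. In OPC-like cells the members at least 1.5-fold higher in Irx5KO (1 reported) came to 2 with a minimum of 200 or 800 genes per cell, a mitochondrial limit of 10% or classes from a marker score per cell, and to 0 with trimmed mean or median-of-ratios scaling. The lower ones (1 reported, Fyn) came to 0 with at least 800 genes, with the marker score and with the mean over cells, and Fyn reversed to 1.21 with the marker score. In COP-like cells the higher ones (2 reported) came to 1 with the mean over cells and with both scalings and to 0 with the marker score. The lower ones (1 reported) came to 2 with at least 800 genes, clustering resolution 0.5, the first clustering alone or the marker score, and to 3 with both scalings. Both scalings divided ratios by factors above 1, while the median log2 ratio of genes with at least 50 UMIs was below 0 in each class. The marker score put 45 Irx5KO and 81 WT cells in the COP-like class, where Olig1 had a ratio of 0.987, Enpp6 1.41 and Bcas1 1.16. The causes were not tested. Members found in at least 50% of thinned WT oligodendrocyte-like cells (1 reported, Olig1) came to 0 when cells were thinned to 800 UMIs. Depth limits the COP-like class most, with 26276 UMIs in Irx5KO and 69293 in WT.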

Other observations

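A small OPC-like sub-cluster led by the cell cycle genes Prc1, Cenpf and Top2a held 1 Irx5KO and 11 WT cells. In its WT cells Pdgfra measured 700 CPM (428 to 1081, 20 UMIs) and Olig1 1925 CPM (1450.0 to 2505, 55 UMIs), while the other 174 WT OPC-like cells had 1262 CPM (1121 to 1416) of Pdgfra and 2958 CPM (2741 to 3189) of Olig1. The single Irx5KO cell held no UMI of either gene. Gpr17 had 6 UMIs in the 11 WT cells, a level of 210.0 CPM (77.1 to 457). Both the sub-cluster and this comparison were chosen after their values were seen.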
